A study of Mus musculus with 6 samples.

Results

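The transcripts that build the meiotic chromosome axis and the synaptonemal complex were compared between testes of mutant mice and of their heterozygous littermates. The mutant mice lack SEL1L in spermatocytes and spermatids. The 10 genes were taken as a list of structural components and matched by GENCODE symbol, 1 gene per symbol, among the 55536 genes counted in each library. They comprise 4 genes of the axis (Sycp2, Sycp3, Hormad1 and Hormad2), 1 gene of the transverse filament (Sycp1) and 5 genes of the central element (Syce1, Syce2, Syce3, Tex12 and 4930447C04Rik, the annotated name of Six6os1). All 10 had at least 283 counts in every mouse, and all 10 were among the 21465 genes that passed the filter on low counts. Whole testes of 3 KOStra8 and 3 HETStra8 mice aged 7 weeks were sequenced, with 1 directional RNA library per mouse. KOStra8 mice carried a floxed and a deleted Sel1L allele with Stra8-Cre. This Cre recombinase is under a promoter that is active in male germ cells from the spermatogonial stage on. Somatic cells of the testis thus kept the floxed allele. The study still found SEL1L protein in spermatogonia of KOStra8 mice. HETStra8 mice carried the floxed and the deleted allele without Cre according to the deposited design, whereas the study also gave that name to mice with Stra8-Cre whose alleles were floxed and wild-type. The genotype of each single HETStra8 mouse was not given in the sources used here. Levels are given in CPM, library-scaled counts normalized with TMM factors, and a log2 fold change is always KOStra8 over HETStra8.

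In the prophase of meiosis each chromosome is organised as loops along a protein axis. SYCP2 and SYCP3 polymerise along this axis and form the lateral element, while the HORMA domain proteins HORMAD1 and HORMAD2 mark axes that are not yet synapsed and are depleted where synapsis has taken place. SYCP1 forms the transverse filaments that hold a pair of homologous axes together like a zip. Between the filaments lies the central element of SYCE1, SYCE2, SYCE3, TEX12 and SIX6OS1, in which SYCE3 and the SYCE1-SIX6OS1 pair act in the initiation of synapsis and the SYCE2-TEX12 complex in its extension. In the testis the complex assembles in zygotene spermatocytes, is complete in pachytene and is taken apart in diplotene spermatocytes.

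The libraries held between 28875108 and 36526695 counts. Sel1l, the targeted gene, had between 42.4 and 49.3 CPM in HETStra8 and between 20.3 and 24.2 CPM in KOStra8 testes, so that the labels and the targeted gene went together. In libraries of whole testis, fewer cells of a type and less RNA per cell cannot be told apart. Libraries differed in how counts followed the GC content of the transcripts. Over 13122 genes, the log2 level rose by 0.22 per 10 percentage points of GC in HETStra8 mouse 1 and by 0.12 in mouse 2, relative to the mean of all libraries, whereas the slope lay between −0.16 and −0.067 in KOStra8 mice and at −0.019 in HETStra8 mouse 3. HETStra8 mouse 3 thus stood apart from the other HETStra8 mice and near the KOStra8 mice in this respect, and results that rest on it are given below with and without it, and with and without a correction of the counts for transcript GC content and length.

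The promoters of the 10 genes are described first, because the genes are used together in the same cells. RefSeq promoter windows of 250 bases before and 50 bases after the transcript start were found for all 10 genes, and 13 short motifs were searched on both strands. The letters CACGTG, known as an E-box and bound by helix-loop-helix factors, were present in the windows of 6 genes (Sycp3, Hormad1, Sycp1, Syce2, Tex12 and 4930447C04Rik), compared with 8.09% of all 27025 genes and 7.15% of all windows. CNCCTCAG, the motif ascribed to the meiotic inducer STRA8, was present in 5 genes (Hormad2, Sycp1, Syce2, Tex12 and 4930447C04Rik), compared with 9.12% of all genes. TTCCCGC occurred in 4 genes (5.29% of all genes) and GGCGGGA in 3 (12.8%), AACNG in all 10 (82.4%), CAACNG, which contains AACNG, in 4 (38.3%), CCAAT in 2 (41.1%), GGGCGG in 6 (38.2%), TATAAA in 1 (15.7%), TGACG in 4 (23.1%) and GTTGCC in 1 (14.1%). TGACGTCA, which contains TGACG, and the full palindromic X-box, of which GTTGCC is a part, were found in 0 of the 10 genes and in 2.03% and 0.09% of genes. The E-box was singled out after these counts were seen, and 0 of its matches in these genes overlapped another motif of the search. It was found both in genes with higher estimates in KOStra8 testes, such as Sycp1, and in Syce2, whose estimate was small, and it was not found in the window of Sycp2, one of the genes with the largest estimates. The stretches around it are shown 5′ to 3′ on the strand of the gene (GRCm38.p6), with the E-box in capitals, to show what these promoters share. The match of Syce2 lies within an annotated exon and is not shown.
Sycp3 (chr10:88459493-88459558, plus strand): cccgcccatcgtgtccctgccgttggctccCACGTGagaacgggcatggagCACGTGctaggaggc
Hormad1 (chr3:95559590-95559655, plus strand): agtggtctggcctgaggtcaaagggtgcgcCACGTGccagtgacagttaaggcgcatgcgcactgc
Sycp1 (chr3:102936159-102936224, minus strand): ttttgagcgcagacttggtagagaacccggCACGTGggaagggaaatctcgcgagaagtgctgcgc
Tex12 (chr9:50561326-50561391, minus strand): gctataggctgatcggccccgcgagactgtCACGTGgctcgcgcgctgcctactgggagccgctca
4930447C04Rik (chr12:72917901-72917966, minus strand): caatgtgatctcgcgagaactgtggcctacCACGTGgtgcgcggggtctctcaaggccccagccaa
In these stretches the first E-box shown begins 64 bases before the RefSeq start in Sycp3, 57 in Hormad1, 94 in Sycp1, 93 in Tex12 and 171 in 4930447C04Rik, and the stretch of Sycp3 holds a further copy. A match of these letters is a description of the sequence and was not tested as a site.

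Per kilobase of exon, the scale on which different genes can be compared, the components were far from equimolar as RNA. In HETStra8 testes, Syce1 had the highest level with 214 ± 7.18 CPM per kilobase (SD, n = 3), followed by Sycp3 with 82.6 ± 28.7, and these levels did not overlap with each other or with the next gene. Syce3 (49.5 ± 2.63), Syce2 (48.2 ± 1.61), Hormad1 (44.8 ± 13.0), Sycp2 (36.6 ± 12.7) and Sycp1 (35.3 ± 16.2 CPM per kilobase) formed a middle group in which each gene overlapped with its neighbour. Tex12 (9.39 ± 0.749), Hormad2 (5.07 ± 1.12) and 4930447C04Rik (3.28 ± 1.34 CPM per kilobase) were lowest, and the last 2 overlapped. In KOStra8 testes the order at both ends was the same, with Syce1 at 220 ± 10.9 and Sycp3 at 116 ± 12.8 at the top, and Tex12 at 10.5 ± 1.05, Hormad2 at 5.59 ± 0.326 and 4930447C04Rik at 5.15 ± 0.190 CPM per kilobase at the bottom. In the middle group, Sycp2 (71.1 ± 1.76) and Sycp1 (69.0 ± 4.57) were now above Hormad1 (60.7 ± 7.65) on average, and above Syce3 (47.1 ± 4.53) and Syce2 (47.0 ± 1.29 CPM per kilobase), while Sycp1 overlapped with both Sycp2 and Hormad1. The levels of partners in a complex therefore differed widely: Syce2 had 4.52 to 5.53 times the level of Tex12 in HETStra8 and 4.17 to 5.13 times in KOStra8 mice, and Hormad1 had 8.13 to 9.36 and 10.1 to 11.7 times the level of Hormad2. The rank of 4930447C04Rik depends on its length, since its 9 annotated transcripts, of which the longest has 2051 bases, cover 5981 bases of exon together. With the longest transcript as length its HETStra8 level was 9.56 CPM per kilobase and that of Hormad2 was 7.05, which reverses their order. With the mean length of the annotated transcripts, Syce1 was still highest (358 CPM per kilobase in HETStra8), but Syce2 (101) then stood above Sycp3 (96.8) in HETStra8, and Sycp2 (174) above Sycp3 (136) in KOStra8 testes. By that length Syce2 had 8.83 to 10.8 times the level of Tex12 in HETStra8 and at least 8.15 times in KOStra8 mice, and Hormad1 had 3.86 to 4.44 and 4.77 to 5.58 times that of Hormad2. Orders and ratios between genes are therefore known only within such limits, while the same gene can be compared between mice on any of these lengths.

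**Figure D1:**
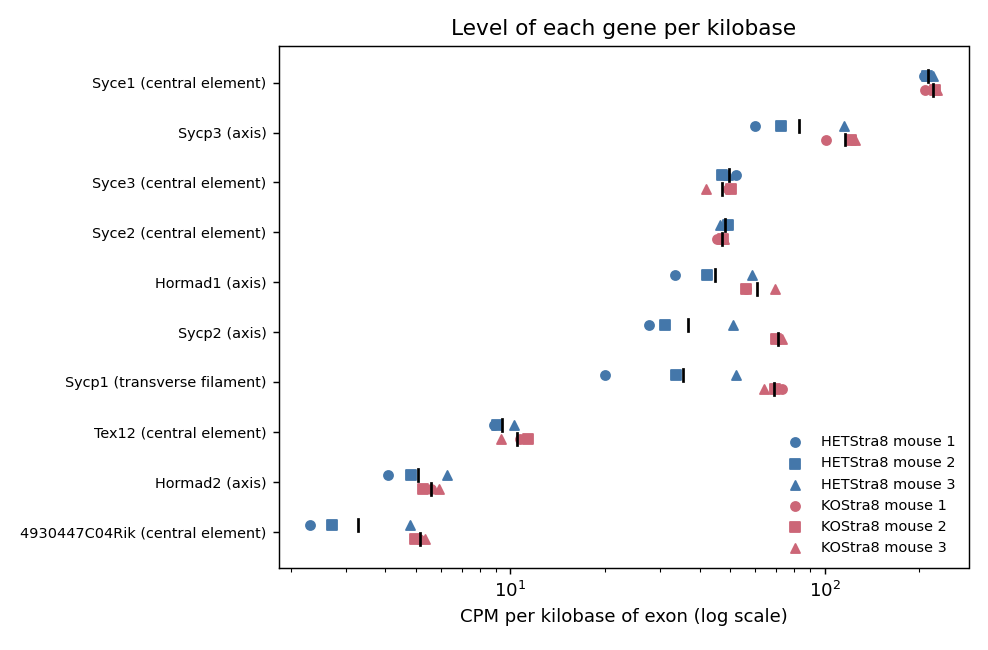
Level of each of the 10 genes in CPM per kilobase of exon (horizontal axis, log scale) in 3 HETStra8 and 3 KOStra8 testes, with a black line at each group mean and genes ordered by the HETStra8 mean. Syce1 is highest at 214 and 220 CPM per kilobase, Tex12, Hormad2 and 4930447C04Rik are lowest, and Sycp2 and Sycp1 move up within the middle group in KOStra8.

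Of the 10 genes, 0 passed a fold of 2 at an adjusted p of 0.01 in edgeR's quasi-likelihood test, cutoffs that 0.00932% of all tested genes passed. The study reported many more genes at the same cutoffs from these testes, so the count here holds for the tests used here. Why the counts differ was not tested. DESeq2's Wald test and limma-voom also called 0 of the 10 at these cutoffs. At p below 0.05 before adjustment, 2 were higher in KOStra8 (Sycp2 and 4930447C04Rik), beside 7.13% of all tested genes, and 0 were lower, beside 5.12% of all tested genes. All 3 KOStra8 mice lay above all 3 HETStra8 mice for 3 genes (Sycp2, Sycp1 and 4930447C04Rik), beside 9.33% of all tested genes, and the groups overlapped for the other 7. Left out 1 at a time, 4 mice (HETStra8 mouse 2 and KOStra8 mice 1, 2 and 3) each left only Sycp2 at an unadjusted p below 0.05, beside 4.29% to 6.48% of all tested genes, without HETStra8 mouse 1 the genes were Sycp2 and Sycp1, beside 5.21%, and without HETStra8 mouse 3 there were 6, beside 11.0% of all tested genes. The values of each gene follow by structural class.

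**Figure D2:**
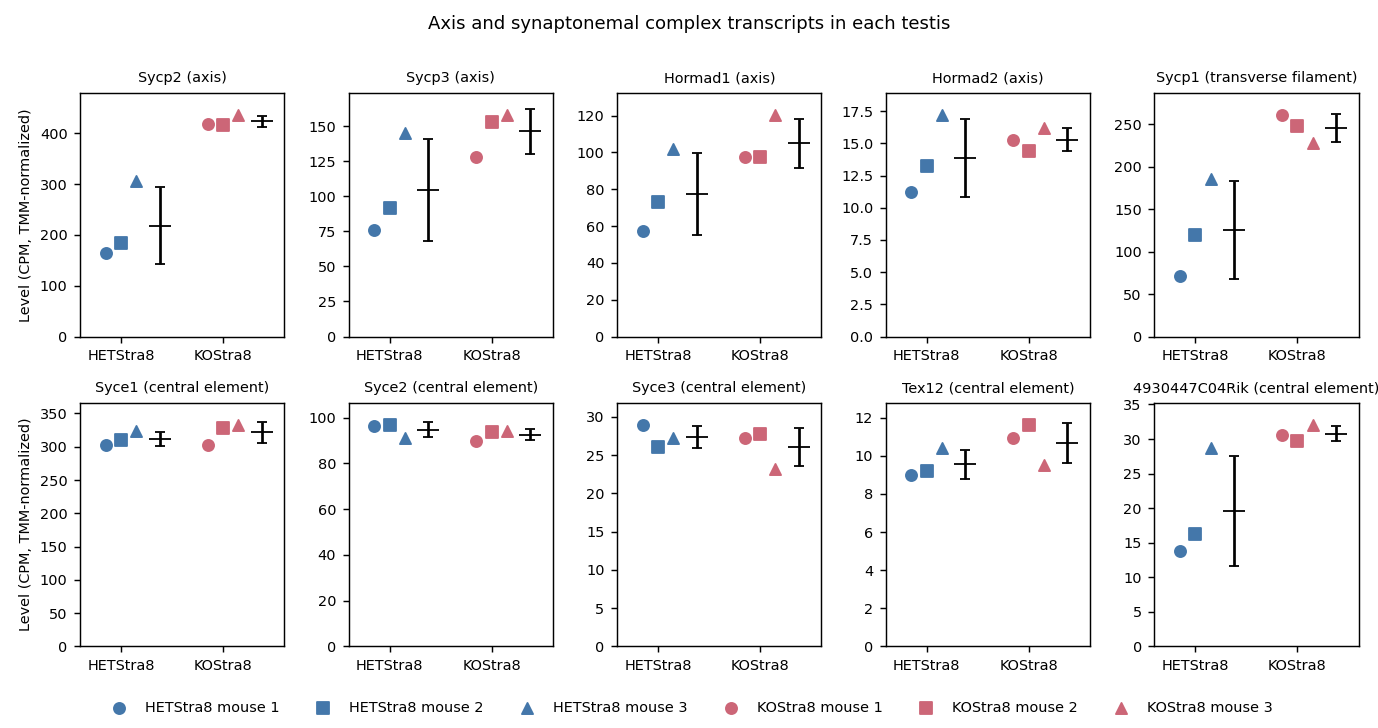
CPM (vertical axes, from 0, TMM-normalized) of each gene in each testis, with symbols for mouse numbers and bars for mean ± SD (n = 3). In Sycp2, Sycp1 and 4930447C04Rik all KOStra8 points lie above all HETStra8 points, in Sycp3 and Hormad1 HETStra8 mouse 3 reaches the KOStra8 points, and in Syce1, Syce2, Syce3 and Tex12 the groups overlap.

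Among the axis genes, Sycp2 (ENSMUSG00000060445, chr2:178345293-178407685), whose product binds SYCP3 and anchors it to the axis, had the smallest p. Its level was 165, 185 and 306 CPM in HETStra8 mice 1 to 3 and 420, 417 and 436 CPM in KOStra8 mice 1 to 3. The KOStra8 mice were close together and all above the highest HETStra8 mouse, which was mouse 3. The log2 fold change was 0.96 (SE 0.256, 95% interval 0.30 to 1.62), with p = 0.0138 (adjusted p = 0.292) by edgeR's quasi-likelihood test and p = 0.1, the smallest that 3 mice against 3 allow, by an exact permutation test of the CPM values. The difference did not pass the adjusted cutoff. Without HETStra8 mouse 3 the log2 fold change was 1.29 with an adjusted p of 1.66e-07, and DESeq2's Wald test on all mice gave an adjusted p of 0.0387. Without HETStra8 mouse 1, the lowest of all 6 mice, it was 0.79 with an adjusted p of 0.537. The study chose Sycp2 from these libraries for quantitative PCR, so its direction here is not independent evidence.

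Sycp3 (ENSMUSG00000020059, chr10:88459569-88473236) encodes the filament-forming protein of the lateral element. Its level was 76.1, 91.8 and 145 CPM in HETStra8 and 128, 153 and 158 CPM in KOStra8 mice 1 to 3. HETStra8 mouse 3 lay within the KOStra8 range, so the groups overlapped. The log2 fold change was 0.49 (SE 0.267, 95% interval −0.20 to 1.17, adjusted p = 0.528), an interval that holds both 0 and a rise of 2-fold. Without HETStra8 mouse 3 it was 0.81 with an adjusted p of 0.00062, and without HETStra8 mouse 1 it was 0.30 with an adjusted p of 0.817. Of the exon bases of Sycp3, 52.2% are also exon of Chpt1, a phospholipid synthesis gene on the opposite strand, and the strand setting of the counting was not given in the sources used here. The level of Chpt1 itself was between 78.9 and 85.4 CPM in HETStra8 and between 78.0 and 95.1 CPM in KOStra8 testes.

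The HORMA domain genes had smaller estimates than Sycp2. Hormad1 (ENSMUSG00000028109, chr3:95559677-95587671), which is needed for synapsis and for its surveillance, had 57.6, 73.1 and 102 CPM in HETStra8 and 97.2, 97.4 and 120 CPM in KOStra8 mice 1 to 3. Again HETStra8 mouse 3 was inside the KOStra8 range while the other 2 HETStra8 mice were below it. The log2 fold change was 0.44 (SE 0.215, 95% interval −0.084 to 0.96, adjusted p = 0.469), with 0.69 and an adjusted p of 0.00738 without HETStra8 mouse 3, and 0.26 and an adjusted p of 0.721 without HETStra8 mouse 1. Hormad2 (ENSMUSG00000020419, chr11:4345814-4441105), which acts in the checkpoint for unsynapsed axes, had 11.2, 13.2 and 17.2 CPM in HETStra8 and 15.3, 14.4 and 16.2 CPM in KOStra8 mice. Its highest level was in HETStra8 mouse 3, above all KOStra8 mice. The log2 fold change was 0.14 (95% interval −0.18 to 0.47, adjusted p = 0.741), and changes beyond 1 on the log2 scale lay outside the interval. It was 0.34 without HETStra8 mouse 3 and 0.0083 without HETStra8 mouse 1. Of the sequences of 50 bases in Hormad1 transcripts, 22.9% are shared with its pseudogenes Gm15529 and Gm7167. These pseudogenes themselves had between 3 and 24 counts per mouse.

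The ratio between the axis genes was also compared, mouse by mouse. The level of Sycp2 per kilobase relative to Sycp3 was 0.460, 0.426 and 0.445 in the HETStra8 mice, in their numbered order, and 0.695, 0.576 and 0.585 in the KOStra8 mice. This ratio was nearly the same in the 3 HETStra8 mice although both levels varied between them, and it was higher in every KOStra8 mouse. With the mean transcript length it was 0.892 to 0.962 in HETStra8 and 1.21 to 1.45 in KOStra8 mice, so its size depends on the length used. Another length scales the ratio by the same factor in every mouse, so it cannot alter whether the groups overlap and is no check of that. Both genes have nearly the same GC content, 36.1% and 35.7%. The ratio of Hormad1 to Hormad2 likewise did not overlap between the groups, with means of 8.74 ± 0.614 and 10.8 ± 0.852 (SD, n = 3), but these 2 genes differ in GC content, 36.2% against 44.8%. Ratios, here and below, were chosen as pairs of partners and are given without a test. How often ratios of other gene pairs keep the groups apart was not counted. For single genes, all KOStra8 mice lay above all HETStra8 mice in 9.33% of all tested genes. With the GC correction described below, the log2 fold changes were 0.47 for Sycp2 and −0.0077 for Sycp3. They were −0.045 for Hormad1 and 0.066 for Hormad2, so Hormad1 then no longer had the larger estimate of that pair. The part of GC content, and of the exon overlap of Sycp3 with Chpt1, in these ratios was not tested.

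Sycp1 (ENSMUSG00000027855, chr3:102818499-102936100), the only gene of the transverse filament, had 70.9, 120 and 186 CPM in HETStra8 mice 1 to 3 and 261, 247 and 228 CPM in KOStra8 mice 1 to 3. The groups did not overlap, and the HETStra8 mice differed among themselves more than for any other of the 10 genes, with 2.62 times more in mouse 3 than in mouse 1. The log2 fold change was 0.97 (SE 0.386, 95% interval −0.072 to 2.01), with p = 0.0615 (adjusted p = 0.424) by edgeR's test and p = 0.1 by the exact permutation test. The estimate was as large as that of Sycp2 and its interval was wider, and without HETStra8 mouse 3 it was 1.37 with an adjusted p of 0.0986, compared with 0.68 and an adjusted p of 0.50 without HETStra8 mouse 1. Relative to Sycp2, Sycp1 had 0.721, 1.09 and 1.02 times its level per kilobase in HETStra8 and 1.04, 0.997 and 0.879 times in KOStra8 mice, ranges that overlapped. Relative to Syce1 it had 0.0963, 0.159 and 0.236 times the level in HETStra8 and 0.353, 0.309 and 0.282 times in KOStra8 mice, without overlap. Sycp1 and Syce1 differ in GC content, 35.6% against 50.4%. With the GC correction described below their log2 fold changes were 0.48 and 0.11. Of the sequences of 50 bases in Sycp1 transcripts, 5.47% are shared on the same strand with other genes, among them the pseudogene Sycp1-ps1 on chromosome 7. Sycp1-ps1 had 48, 84 and 169 counts in HETStra8 and 328, 268 and 300 counts in KOStra8 mice 1 to 3. In CPM this was 1.53, 2.50 and 5.07 in HETStra8 and 9.39, 9.26 and 8.22 in KOStra8 mice. Its log2 fold change was 1.56 (adjusted p = 0.192), larger than that of Sycp1, and 0.96 (adjusted p = 0.221) with the GC correction described below. In CPM the pseudogene thus ranked the 6 mice in the same order as Sycp1, with a larger difference between the groups. How reads were divided between the 2 genes was not tested.

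In the central element, the estimates of 4 genes were small and that of 4930447C04Rik was larger, and none of the 5 passed the adjusted cutoff. Syce1 (ENSMUSG00000025480, chr7:140777229-140787852) had between 302 and 323 CPM in HETStra8 and between 303 and 333 CPM in KOStra8 mice, and the log2 fold change was 0.044 (95% interval −0.10 to 0.19, adjusted p = 0.831). Syce2 (ENSMUSG00000003824, chr8:84872111-84888221) had between 91.1 and 96.8 CPM in HETStra8 and between 89.7 and 94.4 CPM in KOStra8 mice, with a log2 fold change of −0.033 (95% interval −0.20 to 0.13, adjusted p = 0.889). For these genes the spread between mice was small, with coefficients of variation between 2.75% and 4.95% in either group. Differences beyond 0.20 on the log2 scale lay outside both of these uncorrected intervals. With the GC correction described below the intervals reached up to 0.24 for Syce1 and 0.21 for Syce2. Syce3 (ENSMUSG00000078938, chr15:89390174-89410503), which links SYCP1 to the other central element proteins, had between 26.0 and 28.9 CPM in HETStra8 and between 23.2 and 27.8 CPM in KOStra8 mice, with a log2 fold change of −0.071 (95% interval −0.30 to 0.16, adjusted p = 0.821). Tex12 (ENSMUSG00000032065, chr9:50556819-50561325), the partner of SYCE2, had between 9.00 and 10.4 CPM in HETStra8 and between 9.51 and 11.6 CPM in KOStra8 mice, with a log2 fold change of 0.16 (95% interval −0.15 to 0.47, adjusted p = 0.686). The groups overlapped for all 4 of these genes, and the direction of Syce2, Syce3 and Tex12 turned under the GC correction described below.

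4930447C04Rik (ENSMUSG00000021098, chr12:72881109-72940774), whose product pairs with SYCE1, had 13.8, 16.3 and 28.7 CPM in HETStra8 and 30.6, 29.8 and 32.0 CPM in KOStra8 mice 1 to 3. The groups did not overlap, but HETStra8 mouse 3 came within 1.07-fold of the KOStra8 mean, while the other HETStra8 mice lay 2.05-fold below it on average. The log2 fold change was 0.65 (SE 0.263, 95% interval 0.023 to 1.28), with p = 0.0441 (adjusted p = 0.394) by edgeR's test and p = 0.1 by the exact permutation test. Without HETStra8 mouse 3 it was 1.04 with an adjusted p of 7.08e-05, and without HETStra8 mouse 1 it was 0.45 with an adjusted p of 0.653. Without a filter on low counts its adjusted p was 0.00142, at a log2 fold change of 0.65, and with DESeq2's Wald test it was 0.0368. The ratio of 4930447C04Rik to its partner Syce1 per kilobase was 0.0152 ± 0.00568 in HETStra8 and 0.0234 ± 0.00124 in KOStra8 testes (SD, n = 3). These 2 genes differ in GC content, 35.8% against 50.4%, and with the GC correction described below their log2 fold changes were 0.17 and 0.11. The gene overlaps Six6 on the opposite strand by 192 exon bases, and Six6 had 1 count in all 6 libraries together.

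By class, the median log2 fold change was 0.46 for the 4 axis genes, 0.97 for the transverse filament gene and 0.044 for the 5 central element genes, beside −0.0094 over all genes tested. Summed per kilobase, axis transcripts were at 125, 151 and 231 CPM in HETStra8 and at 233, 253 and 273 CPM in KOStra8 mice, whereas central element transcripts were at 320, 320 and 332 CPM in HETStra8 and at 318, 339 and 332 CPM in KOStra8 mice. The sum of the central element varied little over the 6 mice, and Syce1 made up 64.8% to 68.5% of it and 4930447C04Rik 0.724% to 1.61%, so that it chiefly gives the level of Syce1. The axis made up 26.9%, 29.9% and 37.6% of the summed level of the 10 genes in HETStra8 and 37.3%, 38.2% and 40.8% in KOStra8 mice, and in this share HETStra8 mouse 3 lay within the KOStra8 range. The transverse filament made up 4.29% to 8.49% in HETStra8 and 9.58% to 11.7% in KOStra8 mice, and the central element 53.9% to 68.8% and 49.6% to 51.3%, both without overlap. These shares are parts of the same total, so the share of the central element falls where the other classes rise. Its own sum overlapped between the groups. The shares were not corrected for GC content, and how often such shares keep the groups apart was not counted. No test of the classes was made, since they hold few genes and each holds exceptions, Hormad2 in the axis and 4930447C04Rik in the central element.

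**Figure D3:**
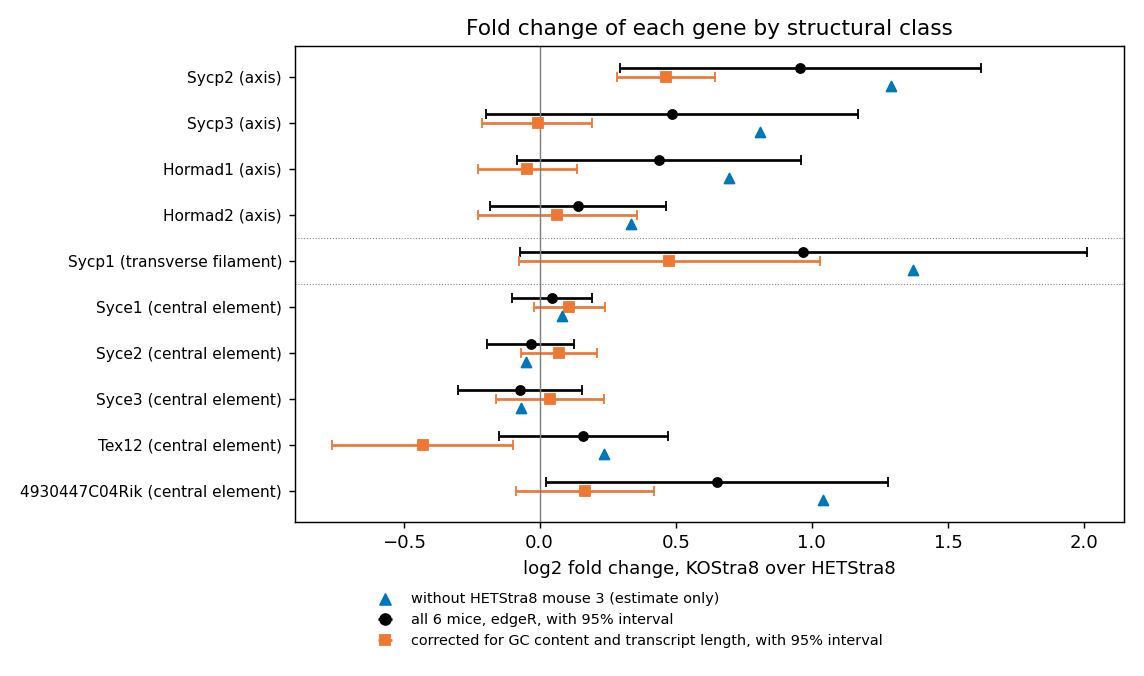
log2 fold change, KOStra8 over HETStra8, of each gene, with genes grouped by class between dotted lines. Black circles show edgeR's estimate from all 6 mice and orange squares the estimate corrected for GC content and length of the transcripts, both with 95% intervals, and blue triangles show the estimate without HETStra8 mouse 3. Sycp2 stays above 0 in all 3, while Sycp3 and Hormad1 go from 0.49 and 0.44 to about 0 with the correction.

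The estimates were also set beside the base composition of the transcripts. Sycp2, Sycp3, Hormad1, Sycp1, Tex12 and 4930447C04Rik have transcripts of 35.0% to 36.2% GC and log2 fold changes of 0.16 to 0.97. Hormad2, Syce1, Syce2 and Syce3 have 44.8% to 53.7% GC and log2 fold changes of −0.071 to 0.14. The 2 ranges are close at Tex12 (0.16) and Hormad2 (0.14), and in limma-voom (0.15 and 0.16), without HETStra8 mouse 3 (0.24 and 0.34) and without KOStra8 mouse 2 (0.10 and 0.19) Hormad2 had the larger value. The median of all tested genes is 49.2% GC, and 5.10% of tested genes lie below 40%, as 6 of these 10 do. Over 21457 genes, which are not independent replicates, the log2 fold change followed GC content with a Spearman rho of −0.47, and 87.8% of the 1094 genes below 40% GC were higher in KOStra8, compared with 46.4% of the other genes. The central 120 coding bases of 6 genes are shown 5′ to 3′ from GENCODE transcripts (release M21), with G and C in capitals, 3 from genes with higher estimates in KOStra8 testes first, then Tex12 and 2 central element genes with small estimates. They were picked to show the range of composition, and the windows of Hormad1 and Syce1, which are not shown, have the same GC content as each other.
Sycp2 (coding bases 2191 to 2310): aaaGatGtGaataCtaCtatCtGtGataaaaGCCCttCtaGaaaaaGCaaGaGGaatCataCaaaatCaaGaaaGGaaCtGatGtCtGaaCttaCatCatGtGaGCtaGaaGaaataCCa
Sycp1 (coding bases 1429 to 1548): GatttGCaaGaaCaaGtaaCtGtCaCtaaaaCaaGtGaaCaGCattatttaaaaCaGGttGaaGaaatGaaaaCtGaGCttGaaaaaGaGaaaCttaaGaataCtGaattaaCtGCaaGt
4930447C04Rik (coding bases 802 to 921): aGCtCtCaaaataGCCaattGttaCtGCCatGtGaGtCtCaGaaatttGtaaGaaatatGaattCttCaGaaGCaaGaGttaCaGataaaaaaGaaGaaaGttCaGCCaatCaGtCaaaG
Tex12 (coding bases 124 to 243): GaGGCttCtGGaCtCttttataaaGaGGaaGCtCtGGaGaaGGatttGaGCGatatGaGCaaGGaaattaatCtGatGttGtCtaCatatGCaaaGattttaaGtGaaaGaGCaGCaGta
Syce2 (coding bases 205 to 324): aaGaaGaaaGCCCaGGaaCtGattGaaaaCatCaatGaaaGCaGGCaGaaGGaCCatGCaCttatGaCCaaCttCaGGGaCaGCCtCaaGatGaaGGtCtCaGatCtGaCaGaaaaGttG
Syce3 (coding bases 73 to 192): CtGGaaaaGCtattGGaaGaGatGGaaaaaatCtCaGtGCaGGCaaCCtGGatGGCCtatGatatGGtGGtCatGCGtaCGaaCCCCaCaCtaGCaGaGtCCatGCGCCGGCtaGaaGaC
In these windows G and C make up 34.2% of the bases in Sycp2, 30.8% in Sycp1 and 34.2% in 4930447C04Rik, compared with 44.2% in Syce2 and 50.8% in Syce3. Tex12 stands between them with 38.3%, and its coding sequence as a whole has 40.1%, more than its transcripts with 35.0%.

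Set against genes of like composition, Sycp3 and Hormad1 lay in the middle and Sycp2 and Sycp1 towards the upper end. Tested genes with 34% to 36% GC had log2 fold changes with a median of 0.48 and quartiles of 0.17 and 0.69, and those with 36% to 38% GC had a median of 0.44 with quartiles of 0.22 and 0.74. Sycp3 (0.49) and Hormad1 (0.44) lay at these medians. 4930447C04Rik (0.65) lay between the median and the upper quartile, Tex12 (0.16) just below the lower quartile, and Sycp1 (0.97) and Sycp2 (0.96) above the upper quartile. Among genes with 50% to 52%, 52% to 54% and 44% to 46% GC the medians were −0.064, −0.10 and 0.091, and Syce1 (0.044), Syce2 (−0.033), Syce3 (−0.071) and Hormad2 (0.14) lay within the quartiles of their bins.

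**Figure D4:**
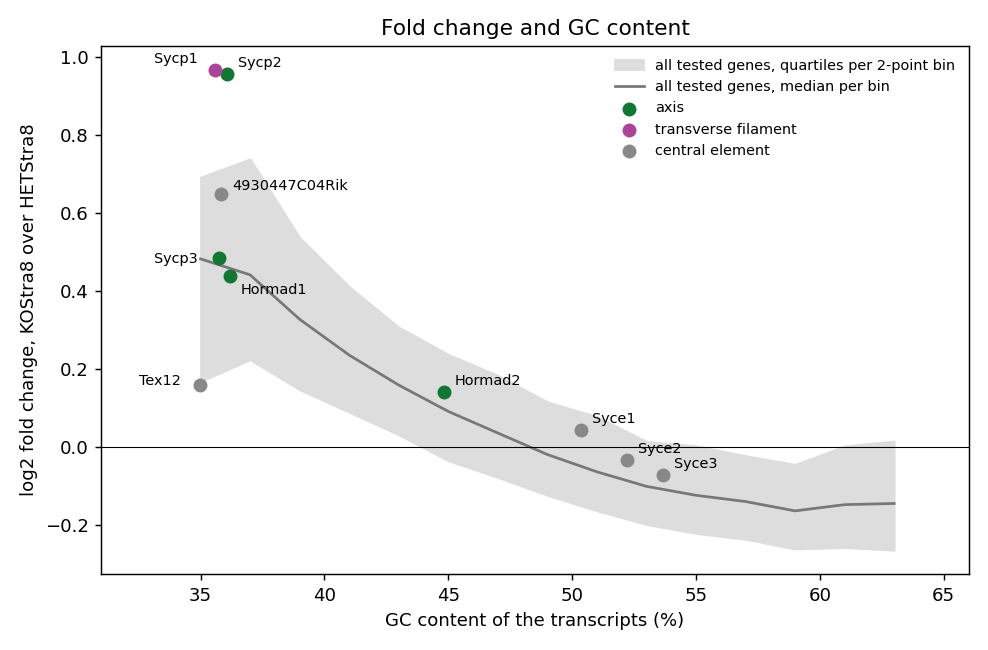
log2 fold change, KOStra8 over HETStra8 (vertical axis), against GC content of the transcripts in percent (horizontal axis) for the 10 genes, coloured by class, over the median (line) and quartiles (band) of all tested genes in bins of 2 percentage points. The line falls from 0.48 at 34% to 36% GC to −0.15 at 62% to 64% GC, and Sycp1 and Sycp2 lie above the band.

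When counts were corrected for the GC content and length of the transcripts, with a curve per library fitted over all genes, 1 of the 10 genes was higher at an unadjusted p below 0.05, beside 3.77% of all tested genes, and 1 was lower, beside 3.15%. The gene that was higher was Sycp2. Its corrected level was 241, 229 and 296 CPM in HETStra8 and 348, 362 and 347 CPM in KOStra8 mice 1 to 3, still without overlap. Its log2 fold change was 0.47 (SE 0.0831, 95% interval 0.28 to 0.65, adjusted p = 0.106). Corrected levels of Sycp1, by a narrow margin, and of Syce2 also lay higher in all KOStra8 mice, and those of Tex12 lower. The share of all genes without overlap after the correction was not counted. The correction lowered the estimate by 0.49 and narrowed the error. The gene that was lower was Tex12, with a corrected log2 fold change of −0.43 (95% interval −0.76 to −0.097, adjusted p = 0.609), although its uncorrected estimate was 0.16. Its corrected levels were 13.6, 11.8 and 9.94 CPM in HETStra8 and 9.19, 9.49 and 7.49 CPM in KOStra8 mice. The correction shifted Tex12 by 0.59, more than any other of the 10 genes. Sycp1 had a corrected log2 fold change of 0.48 (95% interval −0.075 to 1.03, adjusted p = 0.766) and 4930447C04Rik one of 0.17 (95% interval −0.089 to 0.42, adjusted p = 0.826). Sycp3 was at −0.0077 (95% interval −0.21 to 0.19) and Hormad1 at −0.045 (95% interval −0.23 to 0.14), and a rise by 0.20 on the log2 scale lay outside both corrected intervals. These intervals take the fitted curves as known and leave out their error. The GC slopes differed between the groups apart from HETStra8 mouse 3. A genotype difference that follows GC content would thus be removed as well, and the correction cannot tell it from a difference between libraries. The medians of the axis and of the central element were then 0.029 and 0.071, beside −0.0023 over all genes. With the correction made and HETStra8 mouse 3 left out they were 0.16 and 0.067.

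HETStra8 mice 1 and 3 lay at opposite ends of their group in the uncorrected comparison. Mouse 1 was the lowest of all 6 mice for 8 of the 10 genes and had the steepest GC slope of the 6 libraries, and without it the median of the axis was 0.28. Mouse 3 was the highest of the HETStra8 mice for 8 of the 10 genes and lay within the KOStra8 range for 6. Without mouse 3, 2 of the 10 genes (Sycp2 and 4930447C04Rik) passed a fold of 2 at an adjusted p of 0.01, beside 0.190% of all tested genes that were higher, and 4 genes (with Sycp3 and Hormad1) passed that adjusted value at any fold, beside 1.91%. With the mouse left out and the GC and length correction made together, Sycp2 alone passed an adjusted p of 0.01, at 0.58 on the log2 scale (SE 0.0566, adjusted p = 9.08e-05), beside 0.353% of all tested genes that were higher. Sycp3 was then at 0.097 (adjusted p = 0.693) and Hormad1 at 0.013 (adjusted p = 0.976), and 4930447C04Rik at 0.33 (adjusted p = 0.187). Sycp2 was higher in KOStra8 testes in each of these comparisons. For Sycp2, Sycp3, Hormad1 and 4930447C04Rik, mouse 3 was the highest HETStra8 mouse with and without the correction. Leaving it out therefore raises their estimates by construction, and the adjusted p values without it are no independent support. The correction was not combined with leaving out mouse 1.

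Other genes that act on the axis and in synapsis were counted as a list of 15, of which 14 passed the filter on low counts and Sycp2l did not. Before adjustment, 3 of 14 were at p below 0.05 and higher in KOStra8 (Smc1b, Smc3 and Terb1), beside 7.13% of all tested genes, 0 were lower, beside 5.12%, and 0 passed an adjusted p of 0.01. The median log2 fold change of the list was 0.053. Smc1b, the meiotic cohesin subunit, had 134, 166 and 251 CPM in HETStra8 and 295, 291 and 302 CPM in KOStra8 mice 1 to 3, and a log2 fold change of 0.69 (adjusted p = 0.368). Its mouse-by-mouse pattern resembled that of Sycp2, with close KOStra8 values above all HETStra8 values. Smc3, the cohesin subunit used in mitosis and meiosis alike, was at 0.48 on the log2 scale (adjusted p = 0.257), and Terb1, which ties telomeres to the nuclear envelope, at 0.37 (adjusted p = 0.193). After the GC and length correction these were 0.42, 0.26 and 0.19. The other meiotic cohesin genes had log2 fold changes of −0.10 for Rec8 (adjusted p = 0.676), −0.35 for Rad21l (adjusted p = 0.712) and −0.13 for Stag3 (adjusted p = 0.434), and after the correction 0.038, −0.60 and −0.11.

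Markers of the cells in which the complex is built differed little in sum. Each sum here chiefly follows its most abundant genes, such as Spo11, Ldhc and Hspa2 in spermatocytes and Dmrtb1 in spermatogonia. The median log2 fold change was 0.099 for the leptotene and zygotene genes and −0.030 for the pachytene and diplotene genes. The summed level of 6 genes of leptotene and zygotene spermatocytes was 89.4 to 117 CPM in HETStra8 and 103 to 116 CPM in KOStra8 testes. Of these, 1 of the 6, Rad51ap2, was higher at an unadjusted p below 0.05, beside 7.13% of all tested genes. The sum of 8 genes of pachytene and diplotene spermatocytes was 5566 to 5961 CPM in HETStra8 and 5361 to 5710 CPM in KOStra8 testes. Of these 8, 2 genes, Mybl1 and Nme8, were higher at that p, again beside 7.13% of all tested genes. The groups overlapped in both sums. The 7 genes of spermatogonia summed to 665 to 761 CPM in HETStra8 and 618 to 666 CPM in KOStra8, the 6 of round spermatids to 902 to 1026 and 922 to 999 CPM, and the 6 of elongating spermatids to 12800 to 12850 and 11540 to 13050 CPM, with 0 genes at that p in these 3 lists. Of the somatic markers, the 6 Sertoli cell genes summed to 857 to 1041 CPM in HETStra8 and 710 to 828 CPM in KOStra8 testes without overlap. This sum chiefly gives the level of Clu, by far the most abundant of the 6. Of the 6, 2 genes, Clu and Rhox5, were lower at an unadjusted p below 0.05. Over all tested genes 5.12% were lower at that p, a share that stands beside each somatic list. The 5 Leydig cell genes summed to 478 to 719 and 400 to 516 CPM with 1 lower (Star), the 4 of peritubular myoid cells to 91.1 to 127 and 93.3 to 107 CPM with 1 lower (Des), and the 4 of macrophages to 50.9 to 60.4 and 48.0 to 67.2 CPM with 1 lower (Cd68), and these 3 sums overlapped between the groups. Blood genes summed to 20.5 to 32.0 CPM in HETStra8 and 20.7 to 22.3 CPM in KOStra8 testes. Of 5 epididymis genes, summed to 4.08 to 11.8 and 2.86 to 6.27 CPM, Lcn8 had 0 counts in all libraries and Crisp1 had 220 counts in HETStra8 mouse 1 and at most 11 in any other mouse. The part of cell composition in the results of the 10 genes was not tested.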

How the data were processed

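RNA of 6 testes was sequenced in paired ends from strand-marked libraries. As raw counts, the authors deposited whole reads per gene and mouse, and their processing notes name STAR 2.7.1a, featureCounts 1.6.0 and the builds mm10 and GRCm38, while the strand setting is not given in the sources used here. Symbols, positions, lengths and GC content came from GENCODE M21. The comparison was made with edgeR 4.0.16 in R 4.3.3, using its filterByExpr, TMM, a two-sided quasi-likelihood F test (robust, genotype as sole covariate) and Benjamini-Hochberg adjustment over 21465 genes, at the cutoffs that the study gives (2-fold, adjusted p of 0.01). The common biological coefficient of variation was 0.16. The GC and length correction used loess offsets per library (span 0.3, genes above a log2 CPM of 2, 8 tested genes left uncorrected). DESeq2 1.42.0 and limma-voom (limma 3.58.1) were alternatives, with other scalings and filters, a replicate block and each mouse left out. The fits were run on simulated data, where a pass was required only without a simulated GC trend. That is no check of the correction under such a trend. Named genes are the 10 members, Sel1l, the meiotic cohesins and other synapsis genes at an unadjusted p below 0.05, with genes that share their sequence or mark cell types. The members and lists were chosen with earlier results of these data known.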

Additional observations from a re-analysis of the deposited data

How the results depend on the processing

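The count of 0 genes past 2-fold at an adjusted p of 0.01 held under every alternative but those that leave out 1 mouse, where it ranged from 0 to 2, and 0 genes passed an adjusted p of 0.01 or 0.05 at any fold in edgeR's test with TMM, its filter and genotype alone. The count of genes higher at an unadjusted p below 0.05, which was 2, was 5 with limma-voom (beside 7.73% of all tested genes), 4 with the replicate block (7.58%), 1 with the GC and length correction, 1 with block and correction together (3.82%), 4 with the correction and without HETStra8 mouse 3 (6.35%), and 1 to 6 with each mouse left out. The count of genes lower at that p was 1 (Tex12) in the 3 fits with the correction. The axis median of 0.46 was 0.029 with the correction and 0.038 with block and correction, 0.28 to 0.75 with a mouse left out, and 0.16 with HETStra8 mouse 3 left out and the correction made. The median of the central element, 0.044, was 0.019 to 0.091 with a mouse left out and 0.067 with HETStra8 mouse 3 left out and the correction made. Directions turned with the correction, with block and correction, and with the correction without HETStra8 mouse 3: Syce2 to 0.071, 0.071 and 0.067, Syce3 to 0.037, 0.035 and 0.042, and Tex12 to −0.43, −0.43 and −0.55 on the log2 scale. In the first 2 of these fits Sycp3 turned to −0.0077 and −0.0029 and Hormad1 to −0.045 and −0.045, and Syce3 ranged from −0.11 to 0.0062 with each mouse left out. The cause was not tested. Sycp1 kept its direction and side of the threshold in 16 alternatives, from 0.48 to 1.37. Same-numbered mice of the groups did not all deviate together (r of −0.060, −0.053 and 0.11 over all tested genes), so the numbers were not taken as pairs.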
